A study of Mus musculus with 2 samples.

Results

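The 10 genes described here, Acta2, Tagln, Myl9, Cnn1, Tpm1, Tpm2, Mylk, Actg2, Myh11 and Cald1, encode the contractile apparatus of smooth muscle. They were chosen by symbol from the 32285 genes counted in single cells of mouse ovarian tumors, and each was present as 1 row in both deposited tables. Smooth muscle and pericytes contract when myosin light chain kinase phosphorylates the light chains of myosin, which then pulls on filaments of smooth muscle actin, while tropomyosins, caldesmon and calponin sit on the actin filament and restrain that interaction. Activated fibroblasts, called myofibroblasts in wounds and tumors, carry part of the same apparatus, and smooth muscle actin is the usual stain for them. Non-muscle cells also contain tropomyosin and caldesmon, which stabilise their stress fibres.

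The tumors grew from KPCA cells, a mouse ovarian cancer line derived from fallopian tube epithelium that carries mutant Trp53 and overexpresses Ccne1 and Akt2. In KPCA.FSTKO cells the follistatin gene Fst is deleted, and KPCA.FSTKO_hFSTL3 cells are a stable clone of that line with a human FSTL3 transgene on a plasmid, so both groups share the Fst deletion and the host keeps its own Fst. Cells were grafted into the peritoneum of female C57BL/6J mice aged 12 to 16 weeks, and omental tumors were dissociated at day 10. For each genotype 4 tumors were pooled into 1 library, so no value has a replicate, no test between genotypes was made, and all 95% intervals (Poisson intervals for sums, exact Clopper-Pearson intervals for shares and intervals conditional on the total for ratios) reflect counting error alone, not the spread between cells, tumors or mice.

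After the filters on mitochondrial share (under 20%) and gene number (over 200 and under 8000), 6777 of 7582 KPCA.FSTKO barcodes and 4041 of 4244 KPCA.FSTKO_hFSTL3 barcodes remained, with medians of 17253 and 15071 unique molecular identifiers (UMIs, each counting 1 captured transcript). Barcodes were assigned to cell classes by marker genes, none of which is a contractile gene, and barcodes with markers of unrelated classes were left out of every class, except that the pericyte gate tolerated stromal markers. The cut-offs were set after marker shares had been seen. The stromal gate, built on fibroblast genes such as Col1a1, Dcn, Lum and Pdgfra, held 339 and 65 barcodes. The pericyte gate, built on Rgs5, Kcnj8, Abcc9, Higd1b and related genes, held 31 and 10 barcodes, and the cancer gate, built on keratins, Hmga2 and other tumor genes, held 3560 and 272. Levels are given as CPM, the usual scaling of a gene's UMIs by the total UMIs of its gate. Notch3, Ndufa4l2 and Pdgfrb were left out of the pericyte gate because other classes carry them widely, as seen in the marker counts. Of these, the pericyte receptor gene Notch3 stood at 702 and 487 CPM in the pericyte gates and at 22.8 and 28.9 CPM in the stromal gates. It is no independent check of the gate, and the levels of Ndufa4l2 and Pdgfrb are not given here. The libraries stood apart in their remaining barcodes. Barcodes in no gate that passed the exclusion cut of at least 2 of the stromal, cancer, macrophage and erythroid marker sets, called multi-lineage here, made up 11.9% of KPCA.FSTKO (807 barcodes, median 1642 UMIs) and 81.7% of KPCA.FSTKO_hFSTL3 (3302 barcodes, median 15368 UMIs). Pancreatic acinar transcripts were also found inside the gates, with a median of 7.74 UMIs per 10000 in stromal barcodes of KPCA.FSTKO_hFSTL3 and 0.449 in those of KPCA.FSTKO. Fst, the deleted gene, had 5.12 CPM (95% interval 4.70 to 5.57) and 7.28 CPM (5.64 to 9.24) in the cancer gate and 133 CPM (124 to 142) and 191 CPM (170.0 to 214) in the stromal gate. The place of the deletion relative to the counted 3-prime end is not given in the sources used here, so these counts do not check the knockout.

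Promoters of smooth muscle genes are known for CArG boxes, the binding element of serum response factor. RefSeq promoter sequences (GRCm38.p6) were held for 7 of the 10 genes, with 2 start sites for Cald1. An exact CArG match on either strand in the 250 bases before the start was found in 1 of these 8 promoters, that of Myl9, against 1.47% of 32851 promoters of the same length. Matches with at most 1 mismatch were found in Acta2, Myl9, Tpm1 and 1 of the Cald1 starts, against 18.6% of all promoters. The 3 promoters with 2 such sites each are shown with the sites in capitals. They are Acta2 (chr19:34255374-34255623, minus strand, sites from -84 to -75 and from -34 to -25 relative to the start), Myl9 (chr2:156775214-156775463, plus strand, the exact site from -161 to -152 and a second from -99 to -90) and Tpm1 (chr9:67049214-67049463, minus strand, sites from -221 to -212 and from -80 to -71). The 2 Acta2 sites and the 2 Tpm1 sites each carry 1 mismatch. The starts are those of the RefSeq promoter sequences, and parts of all 3 stretches lie inside the gene spans given below. A match describes these letters only and is not evidence of binding.
Acta2: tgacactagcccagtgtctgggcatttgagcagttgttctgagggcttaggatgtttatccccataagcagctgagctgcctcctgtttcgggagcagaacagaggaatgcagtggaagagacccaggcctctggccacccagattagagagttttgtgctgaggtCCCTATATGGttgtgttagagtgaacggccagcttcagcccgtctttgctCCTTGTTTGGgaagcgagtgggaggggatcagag
Myl9: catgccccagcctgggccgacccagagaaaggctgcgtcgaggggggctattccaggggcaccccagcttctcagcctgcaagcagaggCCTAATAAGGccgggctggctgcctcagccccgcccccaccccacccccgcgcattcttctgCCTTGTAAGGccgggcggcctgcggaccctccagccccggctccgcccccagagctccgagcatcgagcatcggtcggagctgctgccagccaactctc
Tpm1: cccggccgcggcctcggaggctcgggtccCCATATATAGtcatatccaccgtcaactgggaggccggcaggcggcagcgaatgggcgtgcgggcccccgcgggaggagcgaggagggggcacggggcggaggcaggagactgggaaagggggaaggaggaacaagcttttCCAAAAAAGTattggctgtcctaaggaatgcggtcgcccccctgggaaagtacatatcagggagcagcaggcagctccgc

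The pericyte gate carried the whole set of genes. No gate was made for smooth muscle cells, so the pericyte gate may hold them. Pericytes here means barcodes of this gate. Summed over the gate, all 10 genes had their highest level there in both libraries, and for each of them the interval of the pericyte gate lay above that of the next gate or barcode set in order. Actin came first. Acta2 (smooth muscle alpha actin, ENSMUSG00000035783, chromosome 19, 34241090 to 34255590) stood at 4328 CPM (4126 to 4537) in KPCA.FSTKO pericytes and 4514 CPM (4252 to 4787) in KPCA.FSTKO_hFSTL3 pericytes. Its gamma counterpart Actg2, best known from visceral muscle (ENSMUSG00000059430, chromosome 6, 83512905 to 83536265), stood at 433 CPM (371 to 503) and 743 CPM (639 to 859). The other muscle actins are near-identical in coding sequence, and reads may be shared between them. Acta1 had no UMI in either pericyte gate, and Actc1 had 4 UMIs (10.1 CPM, 2.74 to 25.8) in KPCA.FSTKO and 39 (158 CPM, 113 to 216) in KPCA.FSTKO_hFSTL3.

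The motor genes followed the same order. Myh11, the smooth muscle myosin heavy chain and the most muscle-restricted gene of the group (ENSMUSG00000018830, chromosome 16, 14194535 to 14291372), stood at 216 CPM (173 to 267) in KPCA.FSTKO pericytes and 272 CPM (211 to 345) in the others, against 28.4 and 12.8 CPM in the stromal gate. Myl9, the regulatory light chain (ENSMUSG00000067818, chromosome 2, 156775420 to 156781658), stood at 1268 and 934 CPM in pericytes and at 76.9 and 141 CPM in stromal barcodes. Mylk, the kinase that phosphorylates that light chain (ENSMUSG00000022836, chromosome 16, 34745210 to 35002420), stood at 913 and 921 CPM in pericytes and at 99.5 and 103 CPM in stromal barcodes. Mylk is also used by endothelium, and its level in the endothelial gate was 41.0 CPM in KPCA.FSTKO (64 barcodes) and 123 CPM in KPCA.FSTKO_hFSTL3 (15 barcodes). In the latter library the endothelial and stromal intervals for Mylk overlapped, but 17 of the 23 endothelial UMIs lay in a single barcode.

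Among the actin-binding genes, Tagln, which encodes the calponin-family protein transgelin (ENSMUSG00000032085, chromosome 9, 45929619 to 45936058), stood at 1940 and 2663 CPM in pericytes. In the stroma it stood at 678 CPM (658 to 698) without and 1520 CPM (1460 to 1583) with the FSTL3 transgene. Tagln overlaps Pcsk7 and Gm48529, Mylk overlaps 1700119H24Rik, E130310I04Rik and Gm21691, and Cald1 overlaps Gm13861, Npn2 and Gm14547 on the other strand, and whether the counting used strand is not given in the sources used here. Cnn1, which encodes calponin 1 (ENSMUSG00000001349, chromosome 9, 22099216 to 22109630), was sparse, with 21 and 43 UMIs in the pericyte gates (52.8 CPM, 32.7 to 80.8, and 175 CPM, 126 to 235). Tpm2, the beta tropomyosin (ENSMUSG00000028464, chromosome 4, 43514711 to 43523765), stood at 1034 and 852 CPM in pericytes and at 399 and 533 CPM in stromal barcodes. Both Tpm1, the alpha tropomyosin (ENSMUSG00000032366, chromosome 9, 67022590 to 67049406), and Cald1, which encodes caldesmon (ENSMUSG00000029761, chromosome 6, 34598500 to 34775473), are also made outside muscle as other isoforms, which 3-prime counts do not separate. Tpm1 stood at 1960 and 2095 CPM and Cald1 at 2448 and 3004 CPM in pericytes.

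**Figure D1:**
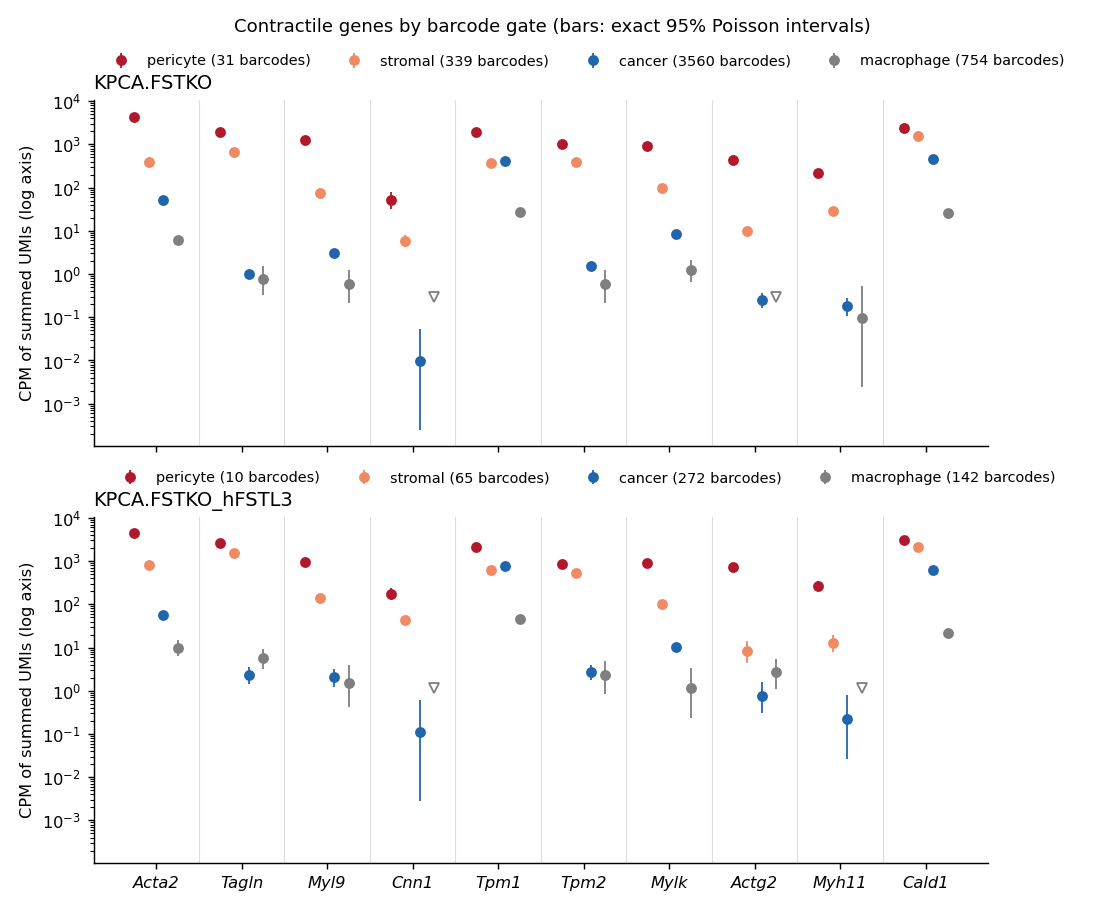
CPM of the 10 contractile genes (log axis) in the pericyte, stromal, cancer and macrophage gates of each library. Points are summed UMIs over all UMIs of the gate, bars are exact 95% Poisson intervals, and open triangles mark the floor of 3 counts where no UMI was found. The pericyte point is the highest for each gene, and the cancer point of Tpm1 lies near the stromal one and that of Cald1 below it, while those of Tagln, Tpm2 and Cnn1 lie far below.

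Pericytes were set against stromal barcodes of the same library to see which genes separate the classes. A gene was called when it had at least 100 UMIs over both sides and a CPM ratio of at least 2, which is a size rule and not a test. In KPCA.FSTKO 8 of the 9 members with enough UMIs were called higher in pericytes and 0 lower, against 9.35% of 7553 genes higher and 17% lower, and their median log2 ratio was 2.93 against 0.03 for all genes. In KPCA.FSTKO_hFSTL3 6 of 9 were called higher and 0 lower, against 7.43% and 17.8% of 3148 genes, with a median of 2.04 against 0.00. Actg2 had the widest gap, at 44.1 times (32.8 to 59.8) and 89.1 times (50.8 to 171) the stromal level. Myl9 was 16.5 times (14.5 to 18.7) and 6.62 times (5.48 to 7.999), Acta2 10.8 times (10.2 to 11.5) and 5.50 times (5.07 to 5.97), and Mylk 9.18 times (8.05 to 10.5) and 8.93 times (7.26 to 10.99). Cald1 did not reach the 2-fold size in either library, at 1.59 times (1.49 to 1.70) and 1.44 times (1.33 to 1.56). Tagln and Tpm2 passed it in KPCA.FSTKO, at 2.86 and 2.59 times, and not in KPCA.FSTKO_hFSTL3, at 1.75 and 1.60 times. The difference between the 2 libraries in these ratios was not tested.

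Stromal barcodes were then set against cancer barcodes. In KPCA.FSTKO 7 of the 8 members with enough UMIs were called higher in the stromal gate and 0 lower, against 14.4% of 13230 genes higher and 19.2% lower, with a median log2 ratio of 4.09 against -0.20. In KPCA.FSTKO_hFSTL3 6 of 7 were called higher and 0 lower, against 12.4% and 16.9% of 8825 genes, with a median of 3.88 against -0.17. The contrast was steepest for Tagln, which was 673 times (555 to 824) the cancer level in KPCA.FSTKO and 666 times (435 to 1079) in KPCA.FSTKO_hFSTL3, and for Tpm2, at 263 times (224 to 310) and 196 times (132 to 305). Acta2, in contrast, was 7.81 times (7.45 to 8.19) and 14.7 times (13.3 to 16.3) the cancer level, so its gap between stroma and cancer was far smaller than that of Tagln. Tpm1 was the exception of the group, since its stromal level was below that of cancer barcodes, with a ratio of 0.913 (0.876 to 0.952) in KPCA.FSTKO and 0.809 (0.756 to 0.865) in the other library.

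Cancer barcodes carried Tpm1 and Cald1 and, at lower levels, Acta2 and Mylk. Tpm1 was found in 93.2% of KPCA.FSTKO and 95.2% of KPCA.FSTKO_hFSTL3 cancer barcodes, at 413 CPM (409 to 416) and 773 CPM (755 to 791), and Cald1 in 94.0% and 88.6%, at 470 CPM (466 to 474) and 631 CPM (615 to 648). To judge free RNA, the macrophage gate (754 and 142 barcodes, median 13022 and 18528 UMIs, against 27914 and 33853 in cancer barcodes) gave 27.6 and 44.9 CPM for Tpm1 and 25.4 and 22.2 CPM for Cald1. With every barcode thinned to 1000 UMIs, Tpm1 was found in 28.7% and 51.1% of cancer barcodes and in 3.86% and 3.65% of macrophage barcodes. In cancer barcodes Acta2 stood at 51.1 CPM (49.8 to 52.5) and 55.7 CPM (51.0 to 60.8), against 5.97 CPM (4.58 to 7.66) and 9.97 CPM (6.51 to 14.6) in macrophage barcodes, and after thinning in 3.91% and 5.73% of cancer barcodes against 0.266% and 1.46%. Tagln in cancer barcodes was at 1.01 CPM (0.824 to 1.22) and 2.28 CPM (1.41 to 3.49), which did not exceed its macrophage intervals of 0.333 to 1.52 and 3.22 to 9.49 CPM. The most Tagln UMIs in a single barcode were 7 and 3 in the cancer gates and 1 and 2 in the macrophage gates. Whether the Tagln counts of cancer barcodes are free RNA was not tested. Mylk lay above its macrophage intervals in both libraries, at 8.56 CPM (8.01 to 9.14) and 10.5 CPM (8.54 to 12.9) against 1.252 CPM (0.667 to 2.14) and 1.15 CPM (0.237 to 3.36). Without thinning it was found in 16.6% and 19.5% of cancer barcodes against 1.72% and 2.11% of the shallower macrophage barcodes. After thinning Mylk was found in 0.821% (0.551 to 1.18%) and 0% (0 to 1.40%) of cancer barcodes, and in 0% of macrophage barcodes in both libraries. In KPCA.FSTKO Myl9 at 3.08 CPM (2.75 to 3.43) and Tpm2 at 1.52 CPM (1.29 to 1.77) also lay above their macrophage intervals, which ended at 1.26 CPM. Actg2 and Myh11 had overlapping cancer and macrophage intervals in both libraries, and Myl9 and Tpm2 in KPCA.FSTKO_hFSTL3. Cnn1 had 1 UMI in 3560 cancer barcodes and 1 in 272.

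The number of contractile genes found in the same barcode followed these levels. In KPCA.FSTKO a pericyte barcode held a median of 8 of the 10 genes, a stromal barcode 5 and a cancer barcode 2, and in KPCA.FSTKO_hFSTL3 the medians were 9.5, 6 and 3. At least 8 genes were found in 21 of 31 and 8 of 10 pericyte barcodes, in 29 of 339 and 9 of 65 stromal barcodes, and in 1 of 3560 and 0 of 272 cancer barcodes. All 10 genes occurred in 5 pericyte barcodes of each library, in 4 and 1 stromal barcodes, and in 0 cancer barcodes. Since deeper barcodes show more genes, the counts were repeated at 1000 UMIs per barcode, where the mean was 4.45 and 5.50 in pericytes, 1.87 and 2.60 in stromal barcodes, 0.689 and 1.03 in cancer barcodes and 0.0718 and 0.0657 in macrophage barcodes. The order of the gates was the same in both libraries with and without thinning. The pericyte gate itself was mixed in KPCA.FSTKO, where 3 of 31 barcodes held 2 or fewer of the genes and 7 had no Acta2 UMI. Those 7 barcodes were shallower (median 8125 UMIs against 14018 in the 22 with at least 5 Acta2 UMIs), yet carried Cald1 at 1717 CPM (1402 to 2083) and Mylk at 150.0 CPM (68.6 to 285).

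**Figure D2:**
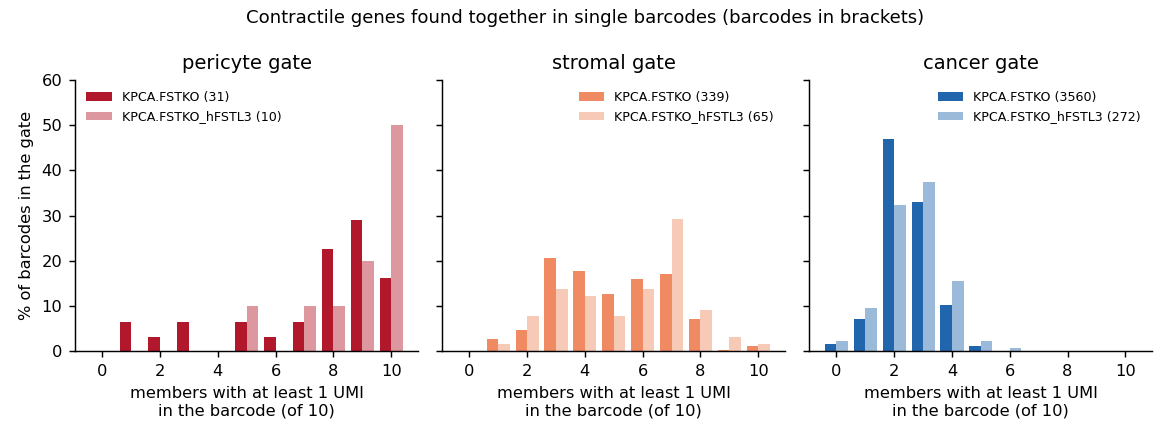
Share of barcodes (%) in the pericyte, stromal and cancer gates by how many of the 10 contractile genes had at least 1 UMI in the barcode, without thinning. Dark bars are KPCA.FSTKO and light bars KPCA.FSTKO_hFSTL3, with the number of barcodes in brackets. Pericyte barcodes gather at 8 to 10 genes, stromal barcodes spread from 1 to 10, and cancer barcodes gather at 2 and 3.

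Acta2 and Tagln were often found in the same stromal barcode, while most cancer barcodes with Acta2 had no Tagln, which was rare in that gate. Both were found in 148 of 339 stromal barcodes of KPCA.FSTKO (43.7%, 38.3 to 49.1%) and 40 of 65 of KPCA.FSTKO_hFSTL3 (61.5%, 48.6 to 73.3%), and of stromal barcodes with Acta2, 78.3% and 88.9% also held Tagln. In pericytes both were found in 22 of 31 and 9 of 10 barcodes. Of cancer barcodes with Acta2, 2.89% (33 of 1140) and 10.2% (11 of 108) also held Tagln, and of the few cancer barcodes with Tagln, 37.5% and 68.8% held Acta2, against 32.0% and 39.7% of all cancer barcodes. After thinning to 1000 UMIs both were found in 10.6% (7.55 to 14.4%) and 30.8% (19.9 to 43.4%) of stromal barcodes and in 45.2% and 70.0% of pericytes. In thinned cancer barcodes both were found in 0 of 3532 and 0 of 262, where 3 counts of the total allow shares of barcodes with both of up to 0.0849% and 1.15%. As thinning left 138 and 15 cancer barcodes with Acta2 alone and 11 and 1 with Tagln alone, these zeros say little about co-expression. Across stromal barcodes the Spearman correlation of Acta2 with Tagln CPM was 0.71 in KPCA.FSTKO (339 barcodes) and 0.87 in KPCA.FSTKO_hFSTL3 (65 barcodes), the highest of the 45 pairs in each. These barcodes come from 1 pooled library each and share its depth and free RNA, so the correlations are descriptions.

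**Figure D3:**
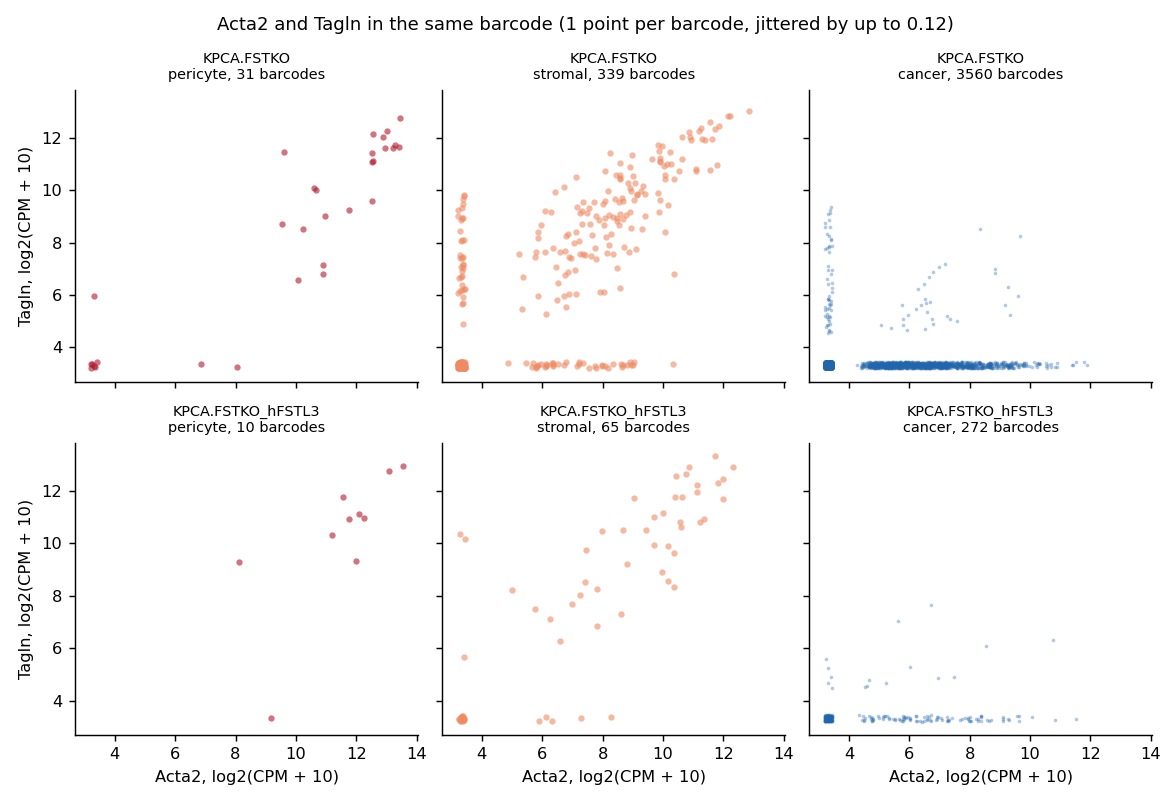
Acta2 (x) against Tagln (y) as log2(CPM + 10), 1 point per barcode, in the pericyte, stromal and cancer gates (columns) of both libraries (rows). Barcodes without a UMI of a gene lie at the low edge of its axis. Points run along the diagonal in the pericyte and stromal panels, while in the cancer panels most barcodes with Acta2 lie along the bottom edge, without Tagln.

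Over all 45 pairs, the median Spearman correlation was 0.68 and 0.75 in the 31 and 10 pericyte barcodes, 0.27 and 0.34 in stromal barcodes, and 0.026 and -0.0050 in cancer barcodes, in KPCA.FSTKO and KPCA.FSTKO_hFSTL3. All 45 pairs were above 0.3 in both pericyte gates, 19 and 25 were in the stromal gates, and 0 were in the cancer gates. In the stromal gates every pair among Acta2, Tagln, Myl9, Tpm1 and Tpm2 was above 0.3 in both libraries, with Tagln and Myl9 next to the top at 0.62 in KPCA.FSTKO and Acta2 and Tpm2 at 0.77 in KPCA.FSTKO_hFSTL3. Mylk with Tpm2 was at 0.0044 and -0.056. The highest cancer pairs were Acta2 with Tpm1 in KPCA.FSTKO (0.28, 3560 barcodes) and Tpm1 with Cald1 in KPCA.FSTKO_hFSTL3 (0.24, 272 barcodes).

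Stromal barcodes fell along a wide range. The median stromal barcode had 57.9 CPM of Acta2 in KPCA.FSTKO and 227 CPM in KPCA.FSTKO_hFSTL3, the upper quartile 338 and 1288 CPM, and the lower quartile was 0 in both. The 5% of stromal barcodes with most Acta2 held 51.2% and 25.8% of its UMIs. Cald1, in contrast, was spread evenly, since the same share of barcodes held 17.9% and 17.5% of its UMIs and it was found in 99.1% and 93.8% of stromal barcodes. Barcodes with at least 5 Acta2 UMIs were 93 of 339 and 33 of 65. In the KPCA.FSTKO stroma they carried Tagln at 1676 CPM (1624 to 1730), Myl9 at 170 CPM (154 to 188) and Tpm2 at 602 CPM (570 to 634), while the 150 barcodes with no Acta2 UMI carried Tagln at 63.8 CPM (54.1 to 74.7), Myl9 at 16.2 CPM (11.5 to 22.1) and Tpm2 at 274 CPM (253 to 295). Their median depth was 22067 and 14898 UMIs. The same 93 barcodes held 37 of the 38 stromal Cnn1 UMIs and 60 of the 63 Actg2 UMIs, though 37 of the Actg2 UMIs lay in 1 barcode.

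Subsets of the stromal gate, which overlap and were drawn after values had been seen, differed in Acta2, Tagln and the sparse Myh11. In KPCA.FSTKO, 38 barcodes with at least 2 mesothelial markers had Acta2 at 207 CPM (179 to 239) and Tagln at 249 CPM (218 to 284), with no Cnn1 or Actg2 UMI. The 39 barcodes with Pi16 or Clec3b, genes of universal fibroblasts, had Acta2 at 229.9 CPM (198 to 266) and Tagln at 520 CPM (471 to 573). The 78 barcodes with at least 5 UMIs of Postn, a matrix gene of activated fibroblasts, had Acta2 at 453 CPM (421 to 487), Tagln at 922 CPM (876 to 970) and Myh11 at 53.5 CPM (42.8 to 66.1), against 28.2 CPM (18.4 to 41.3) of Myh11 in the mesothelial and 10.1 CPM (4.36 to 19.9) in the Pi16 or Clec3b subset. In KPCA.FSTKO_hFSTL3 these subsets held only 11, 12 and 12 barcodes, with Acta2 at 83.1 CPM (55.2 to 120), 458 CPM (367 to 565) and 1168 CPM (1038 to 1309), and with 0, 0 and 1 Myh11 UMIs. A pericyte marker was found in 159 of 339 and 34 of 65 stromal barcodes, and these had Acta2 at 550.2 CPM (526 to 575) and 789 CPM (735 to 845). The 113 and 18 barcodes in none of these subsets had Acta2 at 270.5 CPM (247 to 296) and 1056 CPM (940.1 to 1182). The pericyte-marker subset thus lay above this remainder in KPCA.FSTKO and below it in KPCA.FSTKO_hFSTL3. The other subsets kept the same order of Acta2 levels in both libraries, from mesothelial to Pi16 or Clec3b, then the remainder, then Postn. Neighbouring Acta2 intervals overlapped up to the remainder in KPCA.FSTKO, and between the remainder and Postn in KPCA.FSTKO_hFSTL3. Tagln did not keep this order in KPCA.FSTKO, where the remainder, at 412 CPM (383 to 443), lay below the Pi16 or Clec3b subset. Myh11 also broke it there, with the mesothelial level above that of Pi16 or Clec3b, though their intervals overlapped.

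Acta2 in cancer barcodes was concentrated in a few of them. The 279 KPCA.FSTKO cancer barcodes with at least 5 Acta2 UMIs held 72.1% of the gate's Acta2 UMIs at 366 CPM (354 to 377), and 29 in KPCA.FSTKO_hFSTL3 held 73.3% at 289 CPM (260.3 to 319). Tpm1 in them was at 733 CPM (717 to 749) and 1199 CPM (1140 to 1260), against 339 CPM (334 to 343) and 666 CPM (643 to 690) in barcodes with no Acta2 UMI. Myl9 was at 14.0 CPM (11.9 to 16.5) and 11.5 CPM (6.45 to 19.0) against 1.47 CPM (1.20 to 1.80) and 0.414 CPM (0.0501 to 1.495), and Cald1 at 672 and 915 CPM against 415 and 539 CPM. Tagln was at 1.51 CPM (0.862 to 2.45) and 4.61 CPM (1.69 to 10.0) against 0.993 CPM (0.768 to 1.26) and 1.03 CPM (0.336 to 2.41), and these intervals overlapped in each library. Cnn1 and Myh11 had no UMI in them, under floors of 0.283 and 2.30 CPM, and Tpm2 was at 1.13 and 0.768 CPM. They were deeper than barcodes without Acta2, with medians of 37556 and 46386 UMIs against 25412 and 23436. The tumor gene Hmga2 was at 1365 and 1339 CPM in them, against 1902 and 1616 CPM without Acta2. The keratin genes did not follow Hmga2 throughout. Krt18 was at 1025.5 and 1384 CPM against 940 and 1277, and Krt8 at 791 and 1443 CPM against 851 and 1210. Vim was at 3624 and 3491 CPM against 3213 and 3543. The pericyte marker Rgs5 was at 1.13 and 0 CPM against 1.55 and 0.828. Some matrix and stromal genes were higher in them, with Col3a1 at 800.2 and 494 CPM against 509 and 82.2, Sparc at 776 and 983 CPM against 322 and 325, and Igfbp7 at 650 and 1233 CPM against 171 and 307. Col1a1 was at 48.5 and 113 CPM against 15.5 and 21.7, and Dcn at 28.1 and 21.5 CPM against 15.8 and 2.07. In the stromal gates Col3a1 stood at 11617 and 9971 CPM, Col1a1 at 5811 and 6198 CPM and Dcn at 2831 and 2982 CPM. Their part in the Acta2 signal was not tested.

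**Figure D4:**
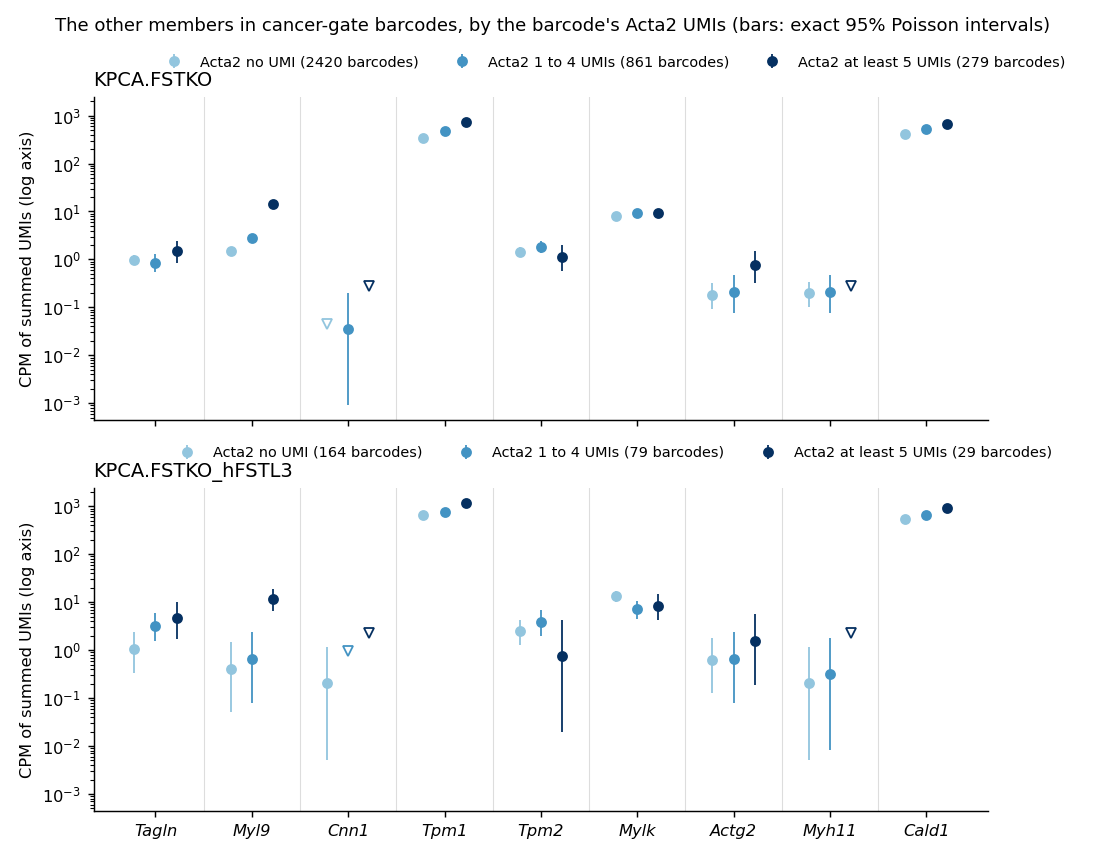
CPM (log axis) of the other 9 contractile genes in cancer-gate barcodes with no Acta2 UMI, with 1 to 4 and with at least 5, for each library. Bars are exact 95% Poisson intervals and open triangles the floor of 3 counts where no UMI was found. Myl9, Tpm1 and Cald1 are highest in the barcodes with at least 5 Acta2 UMIs, while the Tagln, Tpm2 and Mylk points of these barcodes are not set apart.

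The comparison between genotypes asks whether stromal, pericyte and cancer cells differ in contractile genes when the tumor cells carry human FSTL3. In the stromal gate 3 of the 9 members with enough UMIs were called higher in KPCA.FSTKO_hFSTL3 and 1 lower, against 1.46% of 8004 genes higher and 1.74% lower, and the median log2 ratio was 0.73 against 0.05. Acta2 went from 399 CPM (384 to 415) in KPCA.FSTKO to 820 CPM (776 to 866) in KPCA.FSTKO_hFSTL3, a ratio of 2.05 (1.92 to 2.20). Tagln went from 678 to 1520 CPM, a ratio of 2.24 (2.13 to 2.36), and Cnn1 from 5.92 CPM (4.19 to 8.13) to 42.3 CPM (32.7 to 53.8), a ratio of 7.14 (4.72 to 10.9). Cnn1 was found in 16 of 339 and 14 of 65 stromal barcodes, and in 0 of 754 and 0 of 142 macrophage barcodes (3 counts of the total allow shares of barcodes with a UMI of up to 0.398% and 2.11%). Myl9 (1.84, 1.56 to 2.16), Tpm1 (1.66, 1.54 to 1.79), Cald1 (1.35, 1.30 to 1.41) and Tpm2 (1.33, 1.23 to 1.44) had ratios above 1 that did not reach the 2-fold size, and the interval of Mylk held 1 (1.04, 0.868 to 1.24). Myh11 had the opposite sign, from 28.4 CPM (24.4 to 32.8) to 12.8 CPM (7.83 to 19.8), a ratio of 0.452 (0.270 to 0.719), but its 20 UMIs in KPCA.FSTKO_hFSTL3 came from 4 barcodes, 17 of them from 1 barcode.

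The stromal calls depended on the gate and the scaling. With a gate cut 2 times as high only Tagln was called higher, at a log2 ratio of 1.01 in place of 1.166, since Acta2 was at 0.83 in place of 1.04 and Cnn1, at 2.58, had too few UMIs. Acta2 also fell short of 2-fold without the barcode filters (0.99) and after TMM scaling, which removes a shift of the whole gate (0.94). Without the 5% of barcodes with most contractile UMIs 3 genes were again called higher, namely Acta2 at 1.65, Tagln at 1.57 and Myl9 at 1.15 in place of 0.88, while Cnn1, at 3.93 in place of 2.84, had too few UMIs. Myh11 was then at -3.19 in place of -1.15. With only the barcodes under 10 acinar UMIs per 10000 (337 and 40 stromal barcodes, a choice made after seeing the data) Acta2 was at 1.04 and Tagln at 1.18, while Cnn1, at 2.84, had too few UMIs and Myh11, at -0.93, was not called. In summed counts, fewer contractile cells and less RNA per cell cannot be told apart. The share of stromal barcodes with Acta2 was 55.8% (50.3 to 61.1%) without and 69.2% (56.6 to 80.1%) with the FSTL3 transgene, and 18.3% (14.3 to 22.8%) and 44.6% (32.3 to 57.5%) after thinning. In the macrophage gates that share was 7.16% and 10.6%, and 0.266% and 1.46% after thinning.

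In the pericyte gate 0 of the 9 members with enough UMIs were called higher and 0 lower, against 3.45% of 1044 genes higher and 5.08% lower, with a median log2 ratio of 0.10 against 0.05. The ratio of Acta2 was 1.04 (0.966 to 1.13), of Mylk 1.01 (0.851 to 1.19) and of Tpm1 1.07 (0.954 to 1.20). Actg2 had the highest ratio among members with enough UMIs, at 1.72 (1.39 to 2.13), and Myl9 the lowest, at 0.736 (0.627 to 0.862). Cnn1 had a ratio of 3.30 (1.92 to 5.86) on 21 and 43 UMIs, under the minimum. With 10 pericyte barcodes in KPCA.FSTKO_hFSTL3, differences between single cells are not covered by these intervals.

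In the cancer gate 1 of the 7 members with enough UMIs was called higher and 0 lower, against 2.97% of 12910 genes higher and 7.15% lower, with a median log2 ratio of 0.43 against -0.02. The gene called was Tagln, whose levels did not exceed its macrophage intervals (above), and with each barcode weighted equally its log2 ratio was -0.25. Tpm1 had a ratio of 1.87 (1.83 to 1.92) and Cald1 of 1.34 (1.31 to 1.38), while the interval of Acta2 held 1 (1.09, 0.994 to 1.19). After thinning, Tpm1 was found in 28.7% (27.2 to 30.2%) of KPCA.FSTKO and 51.1% (44.9 to 57.3%) of KPCA.FSTKO_hFSTL3 cancer barcodes.

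**Figure D5:**
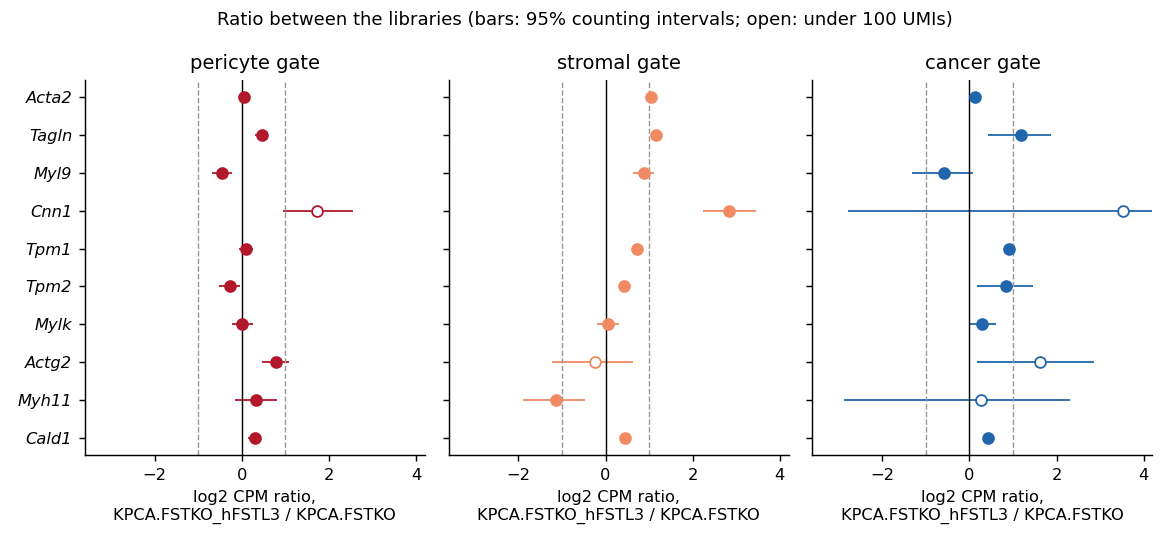
Log2 CPM ratio of KPCA.FSTKO_hFSTL3 over KPCA.FSTKO for each contractile gene in the pericyte, stromal and cancer gates, with 95% counting intervals. Dashed lines mark 2-fold, open points have under 100 UMIs over both libraries, and the Cnn1 interval in the cancer gate, from 1 UMI in each library, runs past the axis. Cnn1, Tagln and Acta2 pass 2-fold in the stromal gate, and the filled pericyte points lie within 2-fold.

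Summed over a whole library, the genes looked different from any gate. Acta2 stood at 82.6 CPM in KPCA.FSTKO and 171 CPM in KPCA.FSTKO_hFSTL3 over all kept barcodes, Tagln at 43.8 and 130 CPM, and Tpm2 at 26.1 and 76.5 CPM. In KPCA.FSTKO the cancer gate held 67.4% of all UMIs of the 10 genes, the stromal gate 15.7% and the pericyte gate 3.92%. In KPCA.FSTKO_hFSTL3 the multi-lineage barcodes held 69.0% of them, the cancer gate 14.8%, the stromal gate 9.98% and the pericyte gate 4.32%. In these multi-lineage barcodes the genes were spread evenly. Among the 2588 with at least 5000 UMIs, 89.0% had Acta2 and 80.7% Tagln, with Acta2 at a median of 148 CPM and a 90th percentile of 291 CPM. The 247 such barcodes of KPCA.FSTKO were uneven, with 50.2% holding Acta2 and 19.8% Tagln, a median Acta2 of 16.5 CPM and a 90th percentile of 556 CPM. The median Spearman correlation over 45 pairs was 0.04 in multi-lineage barcodes of KPCA.FSTKO_hFSTL3 and 0.21 in those of KPCA.FSTKO. A level taken over the whole KPCA.FSTKO_hFSTL3 library is therefore mostly a level of these barcodes, and the values of the gates are given apart from it.

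Other genes of contraction were set beside the 10. Of 13 smooth muscle genes, 6 had enough UMIs for pericytes against stroma in KPCA.FSTKO and 6 of 6 were called higher (in KPCA.FSTKO_hFSTL3, 2 of 2). They included Des, the muscle intermediate filament desmin, at 544 CPM (473 to 621) and 694 CPM (594 to 806) in pericytes and 120 and 150.0 CPM in stroma, and Ppp1r14a, an inhibitor of myosin phosphatase, at 591 CPM (518 to 672) and 361 CPM (290.1 to 445) in pericytes and 3.27 and 1.28 CPM in stroma. Lmod1, the smooth muscle actin nucleator leiomodin, stood at 131 and 154 CPM in pericytes on 52 and 38 UMIs, against 1.87 and 1.92 CPM in stroma. Of 15 cytoskeletal relatives used by most cells, 9 of 15 were called higher in KPCA.FSTKO pericytes and 1 lower, among them Actb, Tpm4, Myl6 and Vcl, while the 1 lower was the non-muscle myosin gene Myh10, and in KPCA.FSTKO_hFSTL3 5 of 14 higher and 1 lower. Over all genes, 9.35% and 7.43% were called higher in pericytes and 17% and 17.8% lower. Between genotypes, 0 of the 15 cytoskeletal relatives and 0 of the 4 smooth muscle genes with enough UMIs were called in the stromal gate, with medians of 0.54 and 0.21. All genes had a median of 0.05, with 1.46% called higher and 1.74% lower. The counts of calls in these short lists therefore do not set them apart from all genes. In the pericyte gate 0 of 13 relatives and 1 of 4 smooth muscle genes were called, against 3.45% of all genes higher and 5.08% lower. The smooth muscle genes had a median of -0.72 there. The gene called was Synpo2, which encodes synaptopodin 2, at 211 CPM in KPCA.FSTKO and 93.4 CPM with the transgene, on 84 and 23 UMIs, while Csrp1 (984 and 597 CPM) and Ppp1r14a did not reach 2-fold. In the cancer gate Myh9, the non-muscle myosin heavy chain, had 402 CPM in KPCA.FSTKO and 1014 CPM in KPCA.FSTKO_hFSTL3, and Mrtfa, a coactivator of serum response factor, 55.9 and 134 CPM, and both were called. They were 1 of 15 relatives and 1 of 9 regulators with enough UMIs, against 2.97% of all genes called higher and 7.15% lower. Of the 10 regulators, 0 of 8 were called between genotypes in the stromal gate, and Myocd, the coactivator myocardin, had 26 and 6 stromal UMIs and 0 and 2 in pericytes.

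Across the 17 sums of gates by library with at least 10 barcodes, the genes outside these lists with a profile most like Acta2 were Cd248, Gdf11, Postn, Prrx1 and Aspn (Pearson r of log2(CPM + 1) from 0.93 to 0.90). Postn is one of the markers of the stromal gate. Cd248, which encodes endosialin, stood at 747 and 1019 CPM in pericytes and 115 and 146 CPM in stroma. The genes most like Myh11 were Heyl, Runx1t1, Khdrbs3, S1pr3 and Ebf2 (r from 0.99 to 0.97), of which Heyl, a target of Notch signalling, stood at 67.9 and 110 CPM in pericytes and 13.9 and 15.4 CPM in stroma. The sums share 2 libraries and the gates set most of their spread, so these are descriptions.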

How the data were processed

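Single-cell suspensions of omental tumors were profiled in 2 libraries, 1 per genotype, each from 4 pooled tumors. The authors aligned reads to mm10 with Cell Ranger (version 3.1.0 in the submitters' processing notes, 7.2.0 in the matrix headers), and the deposited matrices hold raw UMI counts per gene and barcode before the filters named in the report. No deposited column was left unused (0 unused columns of values). The filters of the study's methods were applied (mitochondrial share under 20%, over 200 and under 8000 genes). The paper gives the numbers of deposited barcodes, 7582 and 4244, as its cell counts past quality control. Yet 805 and 203 of these barcodes failed the filters as applied here, and the reason is not known. An item of the line's genotype is not reported here. Doublets were not called, and 12 barcode sequences were shared by the libraries (of 7582 and 4244).

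A barcode entered a gate with at least 3 distinct markers of its class and at least 40 (stromal), 8 (pericyte), 16 (cancer) or 64 (macrophage) marker UMIs per 10000, below the exclusion cuts of the other classes. Counts were summed per gate as CPM, or thinned to 1000 UMIs per barcode. Near the cuts, 8, 1 and 198 stromal, pericyte and cancer barcodes of KPCA.FSTKO and 0, 0 and 17 of KPCA.FSTKO_hFSTL3 lay within 25% above. Outside these gates, 55, 7 and 249 barcodes of KPCA.FSTKO and 30, 3 and 76 of KPCA.FSTKO_hFSTL3 lay within 20% below. The latter were counted without regard to the exclusion cuts. Genes with at least 100 UMIs over both sides and a ratio of at least 2 were called, with no test. The depth is 168214773 and 80391504 deposited UMIs, and intervals cover counting error only. Named genes are the 10 members, fixed companion lists and the 5 genes most like Acta2 and Myh11. The members and lists were chosen with earlier results of these data known. Scripts used Python 3.11.15, numpy 2.4.6, scipy 1.17.1 and pandas 2.3.3, with R 4.3.3 and edgeR 4.0.16 for TMM scaling alone, and were tested on simulated data. Alternatives changed filters, gate cuts, scaling, barcode weights, minimum counts, minimum ratio and thinning.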

Additional observations from a re-analysis of the deposited data

Results flagged for a closer look

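Barcodes removed by the filters enter no comparison, but they were not free of the 10 contractile genes. Summed over the genes, the 203 removed barcodes of KPCA.FSTKO_hFSTL3 held 18869 UMIs, or 1773 CPM (95% Poisson interval 1748 to 1799), and the 805 removed barcodes of KPCA.FSTKO held 25700 UMIs, or 986 CPM (974 to 999). The value was looked at again because it is a signal in barcodes that the report leaves out, and in the KPCA.FSTKO_hFSTL3 library it is above the level in the KPCA.FSTKO library. No difference was tested, since each genotype has 1 library.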

How the results depend on the processing

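No paired analysis was possible because each genotype has 1 library, and for the same reason no replicate could be left out. Of 489 log2 ratios of single genes recomputed under the alternatives, 400 stayed inside their counting interval and 88 left it. The remaining 1 was a called gene that changed sign, Tagln in the cancer gate (-0.25 with each barcode weighted equally). Sign changes were counted only for genes called higher or lower. Ratios near 0 of genes not called could change sign and stay among the 400 or the 88. Of 218 counts and shares, 186 held within their limits and 32 did not. The stromal-over-cancer and pericyte-over-stromal counts held within 1.5 times under every alternative run. Between genotypes, the 3 stromal genes called higher became 1 with a gate cut 2 times as high and 5 at a minimum ratio of 1.5, and the 1 called lower became 0 with mitochondrial share under 10% or with only barcodes under 10 acinar UMIs per 10000 (an alternative chosen after seeing the data). The 1 cancer gene called higher became 0 without filters or with low-acinar barcodes only, 2 at a minimum of 20 UMIs and 3 at a ratio of 1.5, and 1 gene in place of 0 was called lower without the top 5% of barcodes and with equal weights. In pericytes 1 gene in place of 0 was called higher with equal weights, 20 UMIs, a ratio of 1.5 or low-acinar barcodes. Thinning to 3000 UMIs gave 3.23 and 3.82 genes per stromal, 6.34 and 7.50 per pericyte and 1.40 and 1.77 per cancer barcode, by construction of more UMIs, and with 2 UMIs required and no thinning 4.09 and 4.82, 6.55 and 8.20, and 2.00 and 2.03. Acta2 and Tagln were then both found in 21.2%, 65.5% and 0.147% of KPCA.FSTKO stromal, pericyte and cancer barcodes at 3000 UMIs, and with 2 UMIs required in 35.1% and 56.9% of stromal barcodes and 64.5% of KPCA.FSTKO pericytes. TMM scaling shifted all log2 ratios by -0.10 in the stromal, -0.07 in the cancer and -0.10 in the pericyte gate between genotypes and by -0.23 and -0.21 for pericytes over stroma. The cause of the other changes was not tested. Depth limits Cnn1, Actg2 and Myh11 most, and the 10 pericyte barcodes of KPCA.FSTKO_hFSTL3.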
